A study of Mus musculus with 30 samples.

Results

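Sphingosine 1-phosphate (S1P) is a signaling lipid made inside cells and read at their surface. This report follows 6 genes of its metabolism and reception: the kinases *Sphk1* and *Sphk2*, the receptors *S1pr1*, *S1pr2* and *S1pr3*, and the lyase *Sgpl1*. They were chosen by name, and all 6 were found among the 26179 genes with counts in the *RiboTag* tables and the 24601 genes of the total *ME* table. RNA came from the small bowel muscularis externa (*ME*), the muscle layer of the gut wall that holds the myenteric plexus. Mice were naïve or had undergone intestinal manipulation (IM), a surgical model of postoperative ileus, and were sampled after 3 h (IM3h), 24 h (IM24h) or 72 h (IM72h). *RiboTag* libraries hold mRNA pulled down with HA-tagged ribosomes, whose tag is switched on by Cre recombinase in *Sox10*-expressing cells, which in the gut are the enteric glia. *ME* libraries hold total RNA of the whole layer.

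All *RiboTag* groups came from a cross of B6 Tg(Sox10-icre/ERT2)388Wdr/J and B6N.129 Rpl22tm1.1Psam/J, with 3 naïve, 4 IM3h, 4 IM24h and 4 IM72h libraries in the tables. The 3 naïve and 3 IM3h *ME* libraries came from B6.Cg-Tg73.12Mvs/J(Gfap-cre) crossed to the same *Rpl22* line, whereas the 4 IM24h and 4 IM72h *ME* libraries came from the *Sox10* cross. These lines are as the labels give them, and the study's text describes the *Sox10* cross and names no *Gfap*-cre mice. By the labels, every group, naïve mice included, carried the *Rpl22* HA allele and a Cre transgene. Cre under the *Gfap* or *Sox10* promoter marks only cells that used that promoter, and the study's methods describe adult males for the manipulation experiments. In *ME*, the labelled line changed together with time after IM3h, so IM24h or IM72h and the line cannot be told apart in a comparison with naïve. The labels do not tie a library to a mouse, while the study's legends count its samples in mice, and p-values measure the spread between these libraries.

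Sphingosine kinases phosphorylate sphingosine to S1P. SPHK1 is mainly cytosolic and moves to the plasma membrane on stimulation, and SPHK2 is found largely in the nucleus and at internal membranes. S1P leaves the cell and binds G protein-coupled receptors: S1PR1 couples to Gi and is abundant in endothelium and lymphocytes, S1PR2 couples to G12/13 among others, and S1PR3 couples to Gi, Gq and G12/13 and is found in muscle and in glia. SGPL1, the S1P lyase of the endoplasmic reticulum, breaks S1P down irreversibly.

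On the mm10 build with GENCODE M21, *Sphk1* lies on the plus strand at chr11:116530925-116536674 and *Sphk2* on the minus strand at chr7:45709467-45718002. *S1pr1* (chr3:115710433-115715072), *S1pr2* (chr9:20962361-20976781) and *Sgpl1* (chr10:61098642-61147703) are on minus strands, and *S1pr3* (chr13:51408639-51422797) is on the plus strand. *Sphk1* shares 2153 bases with the antisense gene *Gm29292*, *Sphk2* shares 737 bases with *Dbp* and 2546 with *Rpl18* on the other strand, *S1pr3* shares 10048 bases with the opposite-strand *Gm32834*, and *Sgpl1* contains a miRNA gene, *Gm44308*. Whether reads were counted by strand is not given in the sources used here, so these neighbors may share reads with the members.

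RefSeq promoter windows (GRCm38.p6, from 250 bases before to 50 bases after a start) were at hand for 5 of the 6 members, 10 windows in all. *Sphk1* and *S1pr3* are shown because they carry the main changes described for the glial fraction. The first line is the stretch of a *Sphk1* window that no annotated exon covers, at chr11:116531587-116531743 on the plus strand, with the CRE half-site TGACG, a short form of the motif bound by CREB, in capitals. The second is a 30-base stretch of the same window, chr11:116531776-116531805, with letters that match the AP-1 motif TGANTCA, bound by FOS and JUN proteins, in capitals. The third is the stretch before an *S1pr3* start at chr13:51408368-51408617 on the plus strand, with a GC box (GGGCGG) in capitals.
Sphk1 before the start: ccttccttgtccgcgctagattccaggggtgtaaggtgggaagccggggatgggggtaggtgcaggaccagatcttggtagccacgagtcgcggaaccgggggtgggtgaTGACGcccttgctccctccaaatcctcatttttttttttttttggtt
Sphk1 AP-1 letters: gagcgtgtcgcTGAGTCAccttctcggaag
S1pr3 before the start: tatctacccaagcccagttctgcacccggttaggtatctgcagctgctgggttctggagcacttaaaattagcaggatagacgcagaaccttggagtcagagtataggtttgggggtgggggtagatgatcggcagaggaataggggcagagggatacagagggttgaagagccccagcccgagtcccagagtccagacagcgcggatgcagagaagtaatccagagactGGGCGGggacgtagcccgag

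Both strands were searched. The AP-1 letters stood in 2 overlapping windows of *Sphk1*, 50 and 124 bases before their starts, and in no window of *Sphk2*, *S1pr2*, *S1pr3* or *Sgpl1*. Among all 32851 windows of the mouse table, 7.81% held these letters, 20.8% held the CRE half-site (which is also part of the full CRE, TGACGTCA, found in 1.79%) and 35.7% held a GC box. The full CRE stood in a window of *Sphk2* and of *S1pr2*, which also held half-sites, and GC boxes stood in windows of *Sphk2*, *S1pr2* and *Sgpl1* besides *S1pr3*. A search for 3 other motifs found NF-kB letters in 1 window of *Sphk1* (4.505% of all windows), the E-box CACGTG in 2 of its windows (7.15%), and no CArG box (1.629%) in a member's window. These matches describe letters in a window and not binding.

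Library totals were 3010338 to 7899551 counts in *RiboTag* and 6603125 to 12866014 in *ME*. One rRNA-like transcript, *AY036118*, took 2.02 to 14.0% of the counts in naïve and IM3h *RiboTag* libraries, 22.2 to 59.2% at IM24h and 58.0 to 80.1% at IM72h, so later *RiboTag* values rest on fewer reads. In *ME* its share went the other way, with 16.1 to 33.5% in naïve, 24.1 to 25.1% at IM3h, 1.33 to 6.501% at IM24h and 2.34 to 3.69% at IM72h. Of 7 glial markers, 7 were higher in naïve *RiboTag* than in naïve *ME*, where their summed level was 1568 to 1888 and 120 to 144 CPM (read counts scaled for library size). *Sox10* itself was at 486 to 1038 CPM in naïve, 277 to 405 at IM3h, 38.0 to 420 at IM24h and 0 to 11.9 at IM72h *RiboTag* libraries. The IM72h pulldowns, and 2 of the 4 IM24h ones, therefore lacked most of the transcript that defines the labelled cells. CPM values here are scaled by the TMM method over all libraries of a fraction, fold changes and adjusted p-values come from edgeR's quasi-likelihood test of the groups named, with Benjamini-Hochberg adjustment over all genes, and a gene was called changed at an adjusted p under 0.05. In bulk RNA, more cells of a type and more RNA per cell cannot be told apart.

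*Sphk1* was the member with the largest change 3 h after surgery in both fractions. In *RiboTag* it stood at 4.95, 4.18 and 1.90 CPM in the 3 naïve libraries and at 57.6, 57.7, 64.8 and 48.1 CPM in the 4 IM3h libraries. Every IM3h library was far above every naïve one. The rise was 16.1-fold, a log2 fold change of 4.01 (SE 0.39, adjusted p = 7.87e-05). In total *ME*, it rose from 4.96, 4.52 and 4.84 CPM in naïve to 122.4, 137.5 and 132.0 CPM at IM3h, again without overlap, as did 23.4% of all genes there. This rise was 28.1-fold (log2 fold change 4.81, SE 0.13, adjusted p = 4.22e-08), within 1 mouse line. *Sphk1* and *S1pr3* are on the study's list of acute enteric gliosis genes, marked there as published gliosis genes whose expression was then checked in these *RiboTag* samples, so membership is not independent evidence of a rise. A fit that shares its spread over all 4 *RiboTag* groups gave a similar change of 3.95 with an adjusted p of 0.788, and the IM24h and IM72h libraries, which vary widely, enter that fit.

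**Figure D1:**
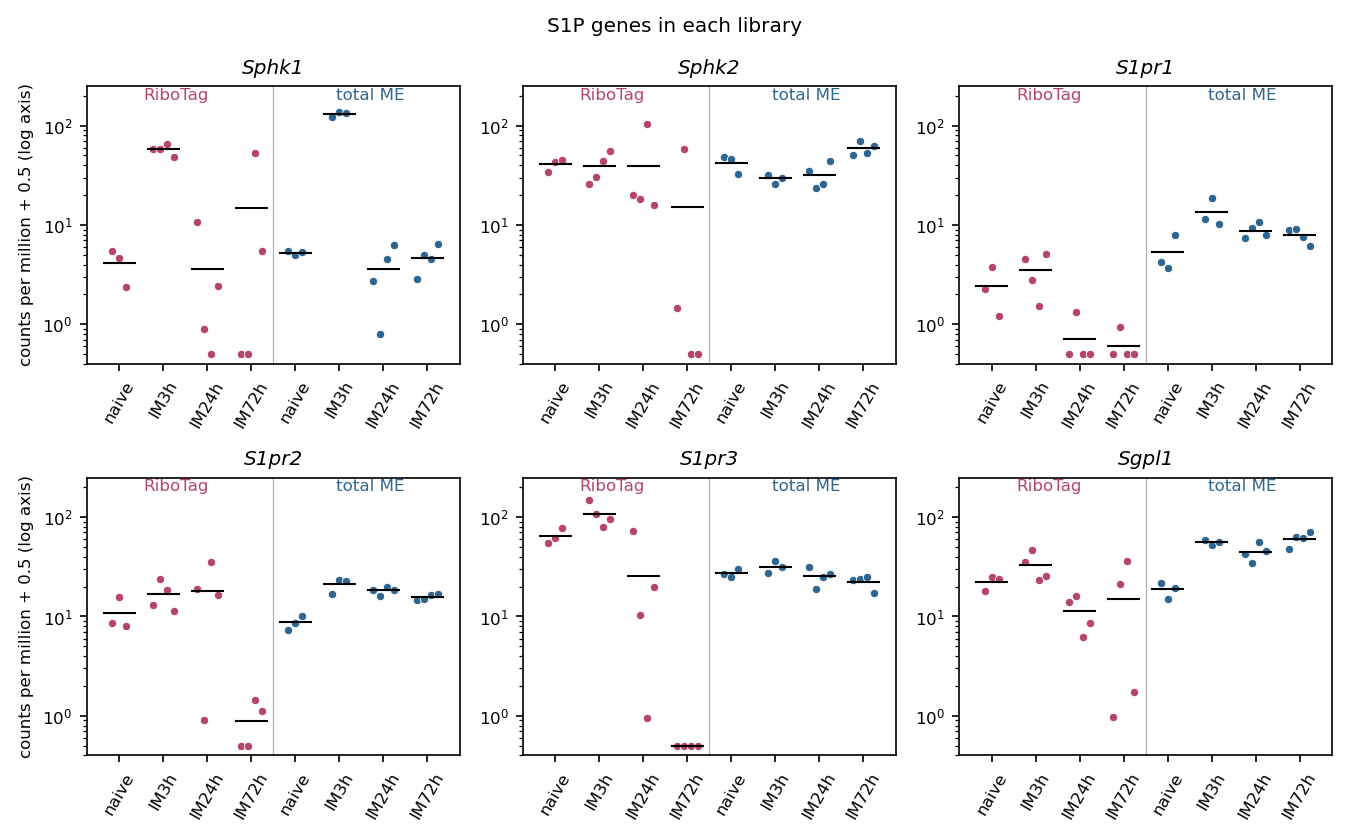
TMM-scaled CPM + 0.5 on a log axis for each of the 6 members (1 panel each) in every library of *RiboTag* and *ME*, by group, where points are libraries and black lines are group means. *Sphk1* sits at 48.1 to 64.8 CPM in *RiboTag* IM3h and at 122.4 to 137.5 CPM in *ME* IM3h, and *S1pr3* is at 0 in all 4 *RiboTag* IM72h libraries.

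The counts behind the rise were large. *Sphk1* had 39, 37 and 16 counts in the naïve *RiboTag* libraries and 745, 604, 557 and 515 at IM3h. In *RiboTag* IM3h, the transcripts *Sphk1-205* and *Sphk1-211* took 47.2% and 44.0% of the gene's counts, and in *ME* IM3h they took 25.0% and 69.0%. The estimated split between transcripts thus differed between fractions, although no test was run on it. Whether the rise itself differed between *RiboTag* and *ME* was tested as an interaction, which gave -0.71 (SE 0.37, adjusted p = 0.405), so no difference was detected. In that comparison 1.65% of all genes were called, and 0 of the 6 members were called by edgeR and 0 by DESeq2, with 1 of 6 (*Sgpl1*) at an unadjusted p under 0.05. By the labels, the fractions in this interaction came from different Cre lines, so fraction and line cannot be told apart in it.

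After the peak, *Sphk1* was below the IM3h libraries of its fraction in all but 1 of the later libraries. At *RiboTag* IM24h it was at 10.2, 0.409, 0 and 1.91 CPM, all below the IM3h libraries, as were 11.6% of all genes. The drop from IM3h to IM24h was 15.9-fold (log2 fold change -3.99, SE 0.94, adjusted p = 0.0482), a narrow call that was lost without scaling (adjusted p = 0.0618), with scaling to reference genes (0.136) and when any IM3h library or IM24h library 2 or 4 was left out (0.0937 to 0.144). Without IM24h library 1 the log2 fold change was -5.88 (adjusted p = 0.00654), and DESeq2 gave *Sphk1* no adjusted p and called *Sgpl1* in its place (adjusted p = 0.0398). In this comparison 0.937% of all genes were called lower by edgeR, and 681 of 24200 by DESeq2. Against naïve, IM24h gave -0.15 (SE 1.66, adjusted p = 0.984). At *RiboTag* IM72h, *Sphk1* was at 0, 0, 52.8 and 4.92 CPM, so 1 library was as high as at IM3h and the others were not. Over the group, 87.3% of the 63 counts were assigned to a single transcript, *Sphk1-208*, which took 47.7% in naïve and 1.72% at IM3h. The antisense neighbor *Gm29292* had 138, 1, 0 and 119 counts in the 4 libraries, so its counts were not high in the library where *Sphk1* was. In *ME*, *Sphk1* was at 0.300 to 5.74 CPM at IM24h and at 2.35 to 5.92 CPM at IM72h, overlapping the naïve libraries, with log2 fold changes of -0.64 (SE 0.71, adjusted p = 0.534) and -0.21 (SE 0.31, adjusted p = 0.575).

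For *Sphk2*, the second kinase, no change was called at IM3h. It was at 33.9, 42.1 and 44.7 CPM in naïve *RiboTag* libraries and at 25.3, 29.6, 44.0 and 54.7 CPM at IM3h. The groups overlapped fully, with a log2 fold change of -0.01 (SE 0.31, 95% interval -0.62 to 0.61). In *ME* it was lower in every IM3h library (31.6, 25.5 and 29.4 CPM) than in every naïve library (47.5, 45.6 and 31.8 CPM), as were 24.8% of all genes. That difference of -0.48 (SE 0.18) missed the threshold with an adjusted p of 0.0628, and passed it when libraries were scaled to 3 reference genes (-0.88, adjusted p = 0.00378) or to the library total (-0.72, adjusted p = 0.0115), and without naïve library 3 (adjusted p = 0.0138). Of 15333 genes, 5363 were called lower with reference genes and 3391 with the library total, against 2058 with TMM scaling.

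Later, *Sphk2* was uneven between *RiboTag* libraries and was called higher in *ME* at IM72h. *RiboTag* IM24h held 19.4, 17.6, 102.9 and 15.3 CPM, where 1 library was above all naïve ones and 3 were below. *RiboTag* IM72h held 0.951, 57.6, 0 and 0 CPM, where again a single library carried nearly all counts. The log2 fold changes of -0.06 (SE 0.67, adjusted p = 0.984) and -1.51 (SE 1.87, adjusted p = 0.792) are means over libraries that do not resemble each other. Without IM72h library 2, the IM72h value was -6.77 (adjusted p = 0.0190). In the IM72h library with 131 *Sphk2* counts, *Dbp*, the opposite-strand neighbor, had 181 counts, and it had 0 in the other 3. At *RiboTag* IM24h *Dbp* had 0 counts in all 4 libraries, also in the one with 232 *Sphk2* counts. Over that group, 64.7% of the *Sphk2* counts were assigned to the transcript *Sphk2-203*, which took 0.0531% in naïve. *Rpl18*, the other opposite-strand neighbor, had 74, 110, 50 and 25 counts at *RiboTag* IM72h and 489, 410, 176 and 752 at IM24h. *Dbp* and *Rpl18* were looked at for their overlap with *Sphk2* after the values were seen. Their part in the *Sphk2* values was not tested. In *ME*, IM72h libraries (49.7, 69.5, 52.4 and 62.3 CPM) were all above the naïve ones, as they were for 31.1% of all genes, and *Sphk2* was 1.38-fold higher (log2 fold change 0.46, SE 0.17, adjusted p = 0.0356). The call was lost in the fit of all 4 groups (adjusted p = 0.0751) and without IM72h library 2 (0.0936), IM72h library 4 (0.0546) or naïve library 3 (0.161), and the direction turned to -0.13 with scaling to reference genes. Within the *Sox10* line, *Sphk2* rose from 22.9 to 43.5 CPM at IM24h to these IM72h levels, without overlap, as for 21.6% of all genes (1.81-fold, log2 fold change 0.86, SE 0.21, adjusted p = 0.00797). This call did not hold with scaling to reference genes (0.57, adjusted p = 0.299). In *ME*, *Rpl18* was at 107.9 to 126.8 CPM in naïve and 141.3 to 159.4 at IM3h. It was at 122.6 to 202.7 CPM at IM24h and 221.3 to 283.7 at IM72h. *Dbp* was at 0.726 to 6.77 CPM in naïve *ME* and 0 to 6.18 at IM72h.

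Taking both kinases within each library removes the effect of scaling. With 0.5 counts added to each gene, the log2 ratio of *Sphk1* to *Sphk2* counts was -2.76, -3.32 and -4.52 in naïve *RiboTag* libraries and 1.18, 0.96, 0.56 and -0.18 at IM3h. The mean moved by 4.16, from -3.53 ± 0.90 (SD, n = 3) to 0.63 ± 0.60 (SD, n = 4). An exact two-sided permutation test gave p = 0.0286, the smallest this design allows, and 0.114 after adjustment over the 12 ratio comparisons. In *ME* the ratio moved from -3.08 ± 0.33 (SD, n = 3) to 2.18 ± 0.24 (SD, n = 3), a difference of 5.26 with an exact permutation p of 0.1, which is the smallest 3 against 3 libraries can give (adjusted 0.196). In *ME* IM24h and IM72h the ratio was at -3.87 ± 1.54 (SD, n = 4) and -3.85 ± 0.42 (SD, n = 4), with exact permutation p of 0.6 and 0.0571 against naïve. *RiboTag* IM72h libraries spanned -8.04 to 6.79, so no common ratio describes them.

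**Figure D2:**
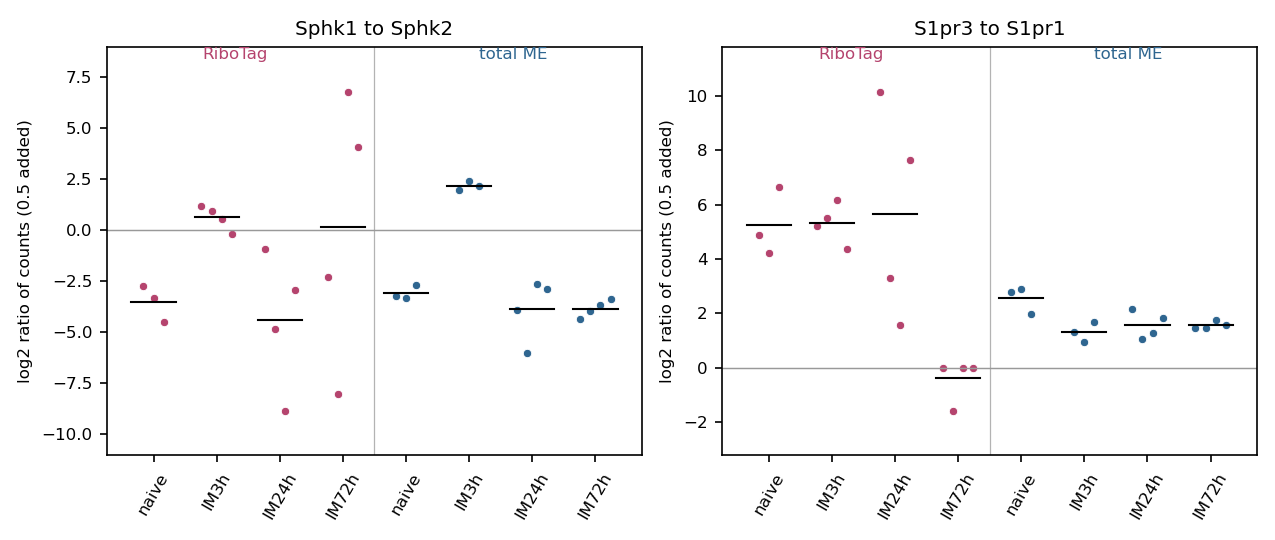
Log2 ratio of *Sphk1* to *Sphk2* counts and of *S1pr3* to *S1pr1* counts within each library, after adding 0.5 counts to each gene, where points are libraries and black lines are group means. The kinase ratio is above the naïve libraries in all IM3h libraries of both fractions, whereas *RiboTag* IM72h libraries run from -8.04 to 6.79.

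Among the receptors, *S1pr3* was the one called higher in the glial fraction of naïve mice. It was at 54.6, 61.6 and 77.5 CPM in naïve *RiboTag* and at 26.5, 24.5 and 29.4 CPM in naïve *ME*. In a fit of both fractions together, it was 3.07-fold higher in *RiboTag* (log2 difference 1.62, SE 0.20, adjusted p = 0.000743). It was the 1 member of 6 called in this comparison, where 13.4% of all genes were called higher. The 7 glial markers moved the same way and the smooth muscle markers the other (3770 to 5700 CPM in *RiboTag*, 19289 to 20180 in *ME*), and the Cre lines of these 2 groups differ. *Sphk1* gave a difference of -0.02 (SE 0.56, 95% interval -1.11 to 1.07), *Sphk2* 0.31 (adjusted p = 0.316), *S1pr1* -0.96 (0.364), *S1pr2* 0.67 (0.24) and *Sgpl1* 0.60 (0.12).

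*S1pr3* was the second member whose *RiboTag* IM3h libraries all lay above the naïve ones. They held 149.3, 106.9, 79.4 and 94.8 CPM, the lowest just above the highest naïve value of 77.5 CPM. Of all genes, 14.3% were higher at IM3h without overlap. The rise of 1.73-fold (log2 fold change 0.79, SE 0.27) had an unadjusted p of 0.0116 and an adjusted p of 0.0715, so it did not pass. It passed with DESeq2 (adjusted p = 0.0464) and without IM3h library 4 (adjusted p = 0.0439), and with scaling to reference genes it was 0.43 (adjusted p = 0.67). In *ME* it was at 26.8, 35.6 and 30.8 CPM at IM3h against 24.5 to 29.4 CPM in naïve, and a log2 fold change of 0.25 (SE 0.15, adjusted p = 0.222) did not pass.

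*S1pr3* and *Sox10* were both low in all 4 *RiboTag* IM72h libraries, while at IM24h they were not low to the same degree. At IM24h, *S1pr3* stood at 71.9, 9.81, 0.444 and 19.1 CPM and *Sox10* at 420.0, 38.0, 53.7 and 260.8 CPM. At IM72h, *S1pr3* had 0 counts in all 4 libraries, while *Sox10* was at 11.9, 2.64, 0 and 1.23 CPM. Of all genes, 28.0% lay below naïve without overlap at IM72h. With 1629 counts in the 3 naïve libraries and 3 counts in each IM72h library as the floor, *S1pr3* was at least 34.6-fold lower at IM72h (adjusted p = 0.0124). This was the 1 call among the 5 members tested at IM72h, where 15.1% of all genes were called lower. The call was lost with no filter on low counts (adjusted p = 0.148) and without naïve library 3 (0.0577). *Sox10* was also called lower (log2 fold change -7.40, adjusted p = 0.00818), while *S100b*, another glial gene, stood at 1027, 101.2, 761.5 and 1077 CPM in these libraries. The 7 glial markers summed to 143.8 to 1461 CPM at IM72h against 1568 to 1888 in naïve, with 1 of 7 called lower. In the same libraries macrophage markers were at 218.9 to 472.04 CPM (naïve 76.2 to 154.4, 1 of 5 tested called higher) and mesothelial markers at 0 to 13.4 CPM (naïve 80.3 to 240.0, 2 of 4 called lower). Lower calls were also made for 2 of 5 endothelial markers tested, 1 of 5 smooth muscle markers and 1 of 4 epithelial markers. The part of these shifts in the *S1pr3* value was not tested. The change at IM24h of -1.28 (SE 0.92, adjusted p = 0.641) did not pass, and at this time 0.497% of all genes were called and 0 of the 5 members tested, with 0 at an unadjusted p under 0.05 and 0 called by DESeq2.

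**Figure D3:**
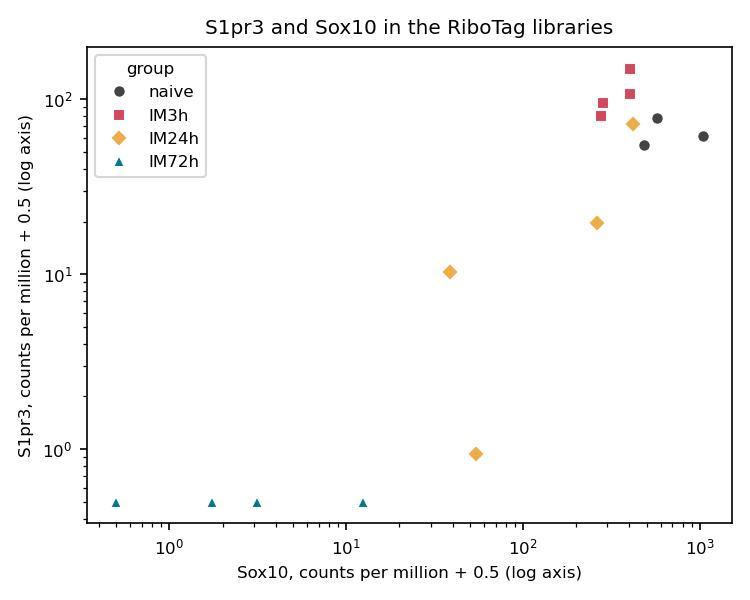
*S1pr3* against *Sox10* in the 15 *RiboTag* libraries, both as TMM-scaled CPM + 0.5 on log axes, with color and shape by group. Naïve and IM3h libraries lie at the upper right, IM24h libraries are spread along the range, and all 4 IM72h libraries lie at the bottom, at 0 CPM of *S1pr3*.

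In *ME*, *S1pr3* was detected in every library at the later times. The levels were 31.2, 18.4, 24.6 and 26.3 CPM at IM24h and 23.0, 23.5, 24.2 and 16.7 CPM at IM72h. Against naïve the log2 fold changes were -0.10 (SE 0.21, adjusted p = 0.751) and -0.33 (SE 0.15, adjusted p = 0.0868), the latter lower without overlap, as 27.7% of all genes were. Without scaling both turned positive, to 0.40 and 0.60, and with scaling to reference genes the IM72h value passed as lower (-0.95, adjusted p = 0.000609). With reference genes the median over all genes at IM72h was -0.58, and 7981 of 16592 genes were called lower.

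*S1pr1* was scarce in the glial fraction and rose in total tissue. In *RiboTag* it had 14, 29 and 6 counts in naïve and 52, 24, 9 and 49 at IM3h, which is 0.711 to 3.28 and 1.05 to 4.58 CPM, and the groups overlapped (log2 fold change 0.68, SE 1.02, adjusted p = 0.737). At IM24h it had 0, 2, 0 and 0 counts and at IM72h 0, 1, 0 and 0, too few to be tested against naïve. From the summed counts, IM24h was 17.4-fold lower than naïve (95% counting interval 4.57 to 147.8) and IM72h 13.7-fold lower (2.35 to 552.7), intervals that cover counting error only. The mean level was 1.92 CPM in naïve, 0.204 at IM24h and 0.110 at IM72h, so the fold depends on how libraries are pooled. In *ME*, *S1pr1* rose from 3.75, 3.23 and 7.38 CPM in naïve to 10.8, 18.3 and 9.64 CPM at IM3h, 2.73-fold (log2 fold change 1.45, SE 0.36, adjusted p = 0.0124). Each IM3h library was above each naïve one, but the call was lost without IM3h library 2 (0.0643) or naïve library 1 (0.0568). *ME* IM24h libraries (6.88 to 10.1 CPM) and IM72h libraries (5.59 to 8.505 CPM) overlapped the naïve range and did not pass (0.77, adjusted p = 0.157, and 0.56, adjusted p = 0.13). The former passed with scaling to the library total (adjusted p = 0.0200), where 6281 of 16328 genes were called higher, and the latter without naïve library 3 (0.0131). At IM24h, where both fractions came from the same line, *S1pr1* had 2 counts in *RiboTag* and 336 in *ME*, a 57.8-fold lower level in *RiboTag* (95% counting interval 15.9 to 478.8, adjusted p = 0.0393), the 1 member called, where 6.38% of all genes were called lower. The call was lost without any 1 of the 4 *ME* libraries or *RiboTag* library 1 or 4 (0.0509 to 0.124). This fold comes from summed counts and the adjusted p from the edgeR fit. The fitted log2 difference ran from -8.96 to -4.65 when 1 library was left out. *Sgpl1* was next in this comparison at -1.68 (SE 0.51, adjusted p = 0.0506), which passed under DESeq2 (0.00128), without scaling (0.0197) and without *RiboTag* library 1, 2 or 3 (0.0223 to 0.0431). Without scaling the median over all genes was -1.64, and 2154 of 14680 genes were called lower.

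S1PR1 is a receptor of endothelium and lymphocytes, so markers of these cells are given beside it. The summed level of 7 endothelial genes in *ME* was 35.5 to 40.6 CPM in naïve, 45.4 to 55.9 at IM3h, 58.9 to 88.6 at IM24h and 82.9 to 95.7 at IM72h, and 1, 3 and 5 of 7 were called higher. None was at 0 in every *ME* library of a group. *S1pr1* thus was highest at IM3h and the endothelial sum at IM72h. Lymphatic endothelial markers were at 18.3 to 22.8 CPM in naïve, 24.2 to 32.4 at IM3h, 21.4 to 44.6 at IM24h and 24.5 to 53.2 at IM72h, with 1, 1 and 2 of 3 called higher. Lymphocyte markers were at 3.26 to 3.87 CPM in naïve, 2.99 to 5.35 at IM3h, 1.0007 to 8.56 at IM24h and 6.39 to 9.03 at IM72h, with 0 of 1, 0 of 1 and 2 of 3 tested called higher. In *RiboTag* the endothelial sum was 34.1 to 47.9 CPM in naïve and 28.8 to 53.6 at IM3h. It was 44.3 to 154.8 CPM at IM24h and 24.2 to 131.1 at IM72h. Lymphocyte markers in *RiboTag* were at 0.226 to 2.37 CPM in naïve and 0 to 2.09 at IM3h. They were at 0 to 16.3 CPM at IM24h and 0 to 22.1 at IM72h. The part of these cells in the *S1pr1* values was not tested.

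*S1pr2* rose in *ME* at all 3 times. It was at 6.89, 8.18 and 9.56 CPM in naïve, at 16.3, 23.0 and 22.4 CPM at IM3h, at 17.8, 15.6, 19.5 and 18.1 CPM at IM24h, and at 14.3, 14.5, 16.1 and 16.5 CPM at IM72h. No later library overlapped the naïve ones, which at IM24h held for 20.1% of all genes. The rises were 2.58-fold (log2 fold change 1.37, SE 0.21, adjusted p = 0.000892), 2.15-fold (1.11, SE 0.23, adjusted p = 0.0054) and 1.83-fold (0.87, SE 0.17, adjusted p = 0.00126). With scaling to reference genes, the calls at IM24h and IM72h were lost (adjusted p = 0.177 and 0.312). In *RiboTag* it was at 8.005, 15.1 and 7.59 CPM in naïve, 12.6, 23.4, 17.8 and 10.8 at IM3h and 18.5, 0.409, 35.03 and 16.0 at IM24h, with overlap and no call (adjusted p = 0.343 and 0.835). At *RiboTag* IM72h it had 0, 0, 1 and 1 counts against 63, 134 and 64 in naïve, a 36.5-fold lower level (95% counting interval 10.01 to 303.3), with an adjusted p of 0.0723. That value passed under DESeq2 and under each of the other scalings. Those scalings moved the median over all genes to -2.60 (none), -2.07 (reference genes) and -2.13 (library total). They called 3289, 3010 and 2828 of 13572 genes lower, against 2049 with TMM scaling.

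*Sgpl1*, the lyase that ends S1P signaling, rose in *ME* together with *S1pr2*. It was at 21.4, 14.4 and 19.0 CPM in naïve and at 57.6, 51.8 and 55.9 CPM at IM3h, a 3.09-fold rise (log2 fold change 1.63, SE 0.16, adjusted p = 3.85e-05). IM24h libraries held 42.4, 34.2, 56.1 and 44.9 CPM (2.41-fold, adjusted p = 0.00217) and IM72h libraries 47.6, 62.0, 60.4 and 71.0 CPM (3.19-fold, adjusted p = 1.75e-05). All later libraries were above all naïve ones, and the IM24h call was lost with scaling to reference genes (adjusted p = 0.114). In *RiboTag* no rise was called. Libraries at 17.7, 24.3 and 23.4 CPM in naïve and 35.2, 45.7, 22.9 and 24.9 at IM3h overlapped, with a log2 fold change of 0.62 (SE 0.33, adjusted p = 0.257). The interaction with fraction was -0.93 (SE 0.38) with an unadjusted p of 0.0267 and an adjusted p of 0.262. At *RiboTag* IM24h, 13.6, 15.5, 5.76 and 8.02 CPM were all below naïve (-0.99, SE 0.76, adjusted p = 0.668), and IM72h ran from 0.475 to 35.5 CPM (-0.54, SE 1.57, adjusted p = 0.93). Lower values without overlap were found for 15.0% of all genes at *RiboTag* IM24h. The transcript *Sgpl1-205* took 0.543% of the *RiboTag* *Sgpl1* counts in naïve and 15.9% at IM3h. It took 77.3% at IM24h and 93.8% at IM72h, and no test was run on this split.

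Counted over the members, *RiboTag* IM3h had 1 of 6 called higher (*Sphk1*) where 8.86% of all genes were, and *ME* IM3h had 4 of 6 (*Sphk1*, *S1pr1*, *S1pr2* and *Sgpl1*) where 19.3% of all genes were. *ME* IM24h had 2 of 6 (*S1pr2* and *Sgpl1*) against 15.6% of all genes, and *ME* IM72h 3 of 6 (*Sphk2*, *S1pr2* and *Sgpl1*) against 29.3%. The median log2 fold change of the members in *ME* was 1.41 at IM3h, 0.33 at IM24h and 0.51 at IM72h, where that of all genes was 0.00, 0.02 and 0.02. In *RiboTag* it was 0.70 at IM3h, where that of all genes was -0.04, -0.15 over the 5 members tested at IM24h (all genes -0.11), and -1.51 over the 5 tested at IM72h (all genes -0.40). With the looser rule of over 2-fold at an unadjusted p under 0.05, *RiboTag* IM72h had 2 members (22.5% of all genes) and *ME* IM72h 1 (32.8%). None of the 6 fell past the threshold in *ME* at any time against naïve with TMM scaling and all libraries, while *Sphk2* at IM3h and *S1pr3* at IM72h did under the other scalings given above, and *Sphk2* without naïve library 3. Comparisons within a fraction share their naïve libraries. Between IM24h and IM72h, *ME* had 1 of 6 called (*Sphk2*), where 18.6% of all genes were higher, and *RiboTag* had 0 of the 2 members tested and 0 of all 9344 genes by edgeR, with 6.27% of all genes at an unadjusted p under 0.05 and more than 2-fold. DESeq2, which tested more of them, called 1 member there, *S1pr3*, which was at least 13.5-fold lower at IM72h than at IM24h, with the same floor and 696 counts over the IM24h group. Of 23281 genes, DESeq2 called 159 higher and 251 lower in this comparison.

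**Figure D4:**
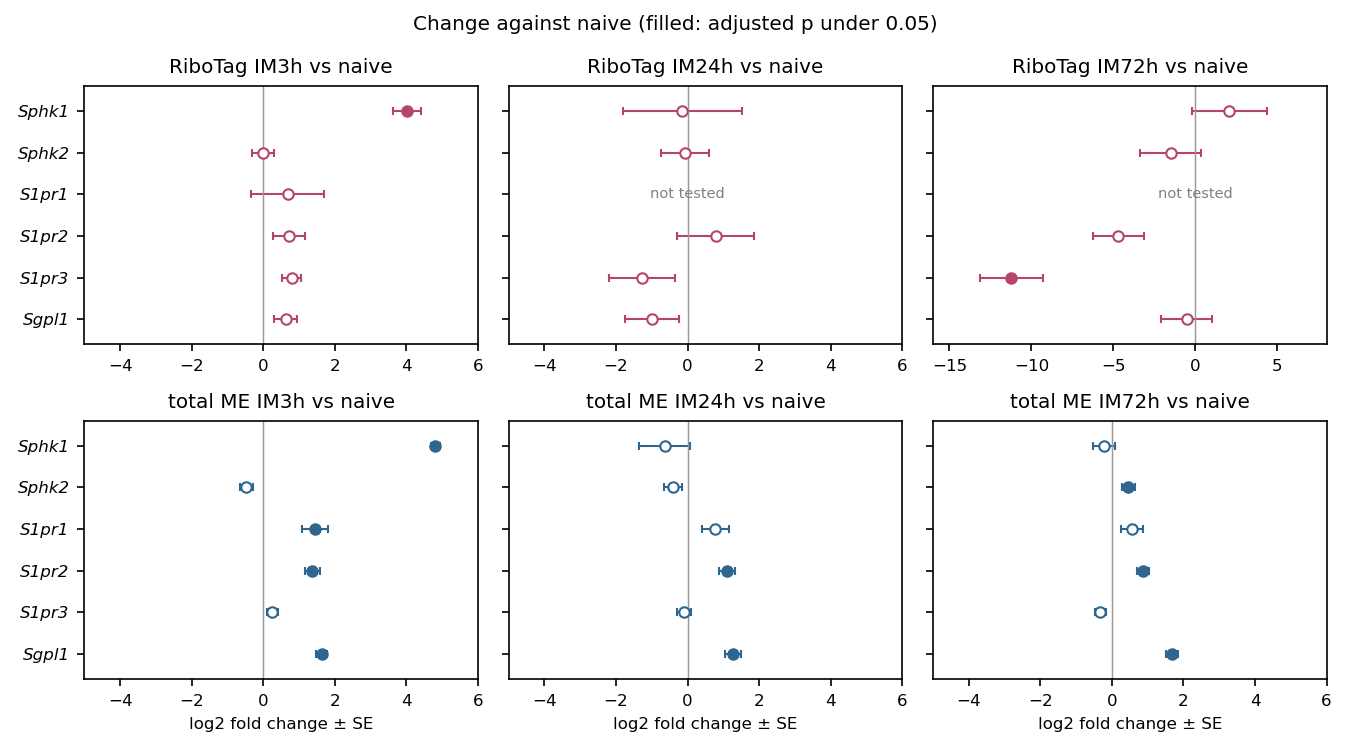
Log2 fold change of each member against naïve with its standard error (bars), by fraction and time, in total *ME* below *RiboTag*, where filled points passed an adjusted p of 0.05. *Sphk1* stands at 4.01 and 4.81 at IM3h, and the *RiboTag* IM72h panel has a wider axis, where *S1pr3* is a fitted value for a gene at 0 counts and not a measured fold.

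Markers of immune cells also moved in *ME*. Neutrophil markers summed to 0.604 to 0.861 CPM in naïve and 23.9 to 32.8 CPM at IM3h, with 3 of 3 tested called higher and *Ly6g* at 0 throughout. Macrophage markers were at 145.8 to 156.1 CPM in naïve, 103.4 to 121.4 at IM3h, 347.3 to 450.8 at IM24h and 752.0 to 1048 at IM72h, with 1, 4 and 6 of 6 called higher, and 2 lower at IM3h. At IM24h and IM72h neutrophil markers were at 45.5 to 206.9 and 18.1 to 52.6 CPM, with 4 of 4 tested called higher at both times. Monocyte markers went from 22.6 to 30.1 CPM in naïve to 29.8 to 71.6 at IM3h, 147.2 to 200.02 at IM24h and 103.4 to 147.8 at IM72h, with 2 of 2 tested, 2 of 3 and 3 of 3 called higher. Smooth muscle markers went from 19289 to 20180 CPM in naïve to 14460 to 16938, 2716 to 9565 and 10155 to 16985, with 1, 3 and 3 of 5 called lower. Markers of interstitial cells of Cajal were at 232.0 to 247.6 CPM in naïve *ME*. They were then at 169.6 to 186.4, 126.6 to 247.7 and 81.6 to 102.4, with 2, 1 and 3 of 3 called lower. Fibroblast markers were at 1692 to 1780 CPM in naïve, 952.2 to 1042 at IM3h, 767.5 to 1827 at IM24h and 2733 to 3177 at IM72h, with 3, 2 and 1 of 4 called lower and 0, 1 and 1 higher. Mesothelial markers, at 101.2 to 122.9 CPM in naïve *ME*, were then at 14.6 to 58.6, 6.40 to 81.1 and 32.0 to 79.9. Of these, 3, 1 and 2 of 4 were called lower. Glial markers, at 119.9 to 144.3 CPM in naïve, were then at 128.7 to 143.4, 102.0 to 139.6 and 156.1 to 307.1. Of these, 2, 1 and 3 of 7 were called higher and 2, 1 and 2 lower. The part of these cells in the *ME* changes of *Sphk1*, *Sphk2*, *S1pr2* and *Sgpl1* was not tested. In *RiboTag* IM3h, where *Sphk1* also rose, neutrophil markers were at 3.53 to 9.81 CPM against 0.254 to 1.42 in naïve, with *Ly6g* at 0 throughout, and macrophage markers at 57.6 to 115.2 CPM, against 76.2 to 154.4 in naïve. Glial markers summed to 1298 to 2817 CPM there, with 1 of 7 called higher and 3 lower, among the latter *Sox10* (-0.97, adjusted p = 0.0471). Markers of smooth muscle went from 3770 to 5700 CPM in naïve *RiboTag* to 1587 to 3689 at IM3h, those of fibroblasts from 441.3 to 536.4 to 176.1 to 274.5, and those of mesothelium from 80.3 to 240.0 to 10.3 to 73.1, with 2 of 5, 2 of 4 and 3 of 4 called lower. Markers of interstitial cells of Cajal went from 87.3 to 124.8 CPM to 27.8 to 55.8, with 1 of 3 called lower, and those of neurons from 386.6 to 809.2 CPM to 549.9 to 1263, with overlap and 1 of 5 called higher. The part of all these cells in the *RiboTag* values was not tested.

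The balance of 2 receptors was also read within libraries. The log2 ratio of *S1pr3* to *S1pr1* was 5.25 ± 1.26 (SD, n = 3) in naïve *RiboTag* and 5.31 ± 0.75 (SD, n = 4) at IM3h, a difference of 0.06 (exact permutation p = 0.943). In *ME* it went from 2.56 ± 0.50 (SD, n = 3) in naïve to 1.31 ± 0.35 (SD, n = 3) at IM3h, and to 1.59 ± 0.51 and 1.56 ± 0.15 (SD, n = 4 each) at IM24h and IM72h. The exact permutation p was 0.1 at IM3h, the smallest possible, 0.114 at IM24h and 0.0286 at IM72h, which became 0.114 after adjustment over 12 comparisons. At *RiboTag* IM72h both genes had 0 or 1 counts, so the ratio there reflects the 0.5 counts added and nothing else.

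The other genes of sphingolipid metabolism came from a list of 45, of which 36 were tested at IM3h in either fraction. In *RiboTag*, 3 rose and 2 fell, where 8.86% of all genes rose and 4.44% fell, with a median of 0.11 where all genes had -0.04. In *ME*, 7 rose and 5 fell, where 19.3% of all genes rose and 13.4% fell, with a median of 0.01 where all genes had 0.00. *Sgms2*, a sphingomyelin synthase, rose in both (2.18, SE 0.62, adjusted p = 0.0363 in *RiboTag*, and 2.29, SE 0.26, adjusted p = 0.000104 in *ME*). *Ugcg*, which makes glucosylceramide, rose by 1.26 (SE 0.32, adjusted p = 0.0238) and 1.06 (SE 0.16, adjusted p = 0.000731) on the log2 scale. *Smpd2*, a neutral sphingomyelinase, fell in both (-1.94, adjusted p = 0.00354, and -0.80, adjusted p = 0.00186), as did the ceramide synthase *Cers4* (-1.003, adjusted p = 0.0127, and -0.72, adjusted p = 0.00534). *Plpp3*, a lipid phosphatase that can remove phosphate from extracellular S1P, rose in *RiboTag* (1.15, SE 0.25, adjusted p = 0.0107). It was the 1 gene of the list whose interaction of fraction and IM3h passed, where 1.65% of all genes were called. Fraction and labelled mouse line cannot be told apart in that interaction. In *RiboTag* the calls of these 5 genes were lost in the fit of all 4 groups, and apart from *Smpd2* with scaling to reference genes (adjusted p = 0.0569 to 0.401). The call of *Sgms2* was also lost with the library total (0.0639) and without IM3h library 1, 2 or 3 or naïve library 1 or 2 (0.0753 to 0.106), that of *Ugcg* without IM3h library 3 or any naïve library (0.0564 to 0.0958), that of *Plpp3* without naïve library 1 (0.0524), and that of *Cers4* without scaling (0.112) and without naïve library 3 (0.0838). *Sgms1*, the other sphingomyelin synthase, rose in *ME* (1.25, adjusted p = 7.96e-05), and the acid sphingomyelinase *Smpd1* fell there (-0.80, adjusted p = 0.000709). Without scaling, the *ME* calls of *Smpd1* (adjusted p = 0.0550), *Ugcg* (0.0653) and *Cers4* (0.0734) were lost.

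**Figure D5:**
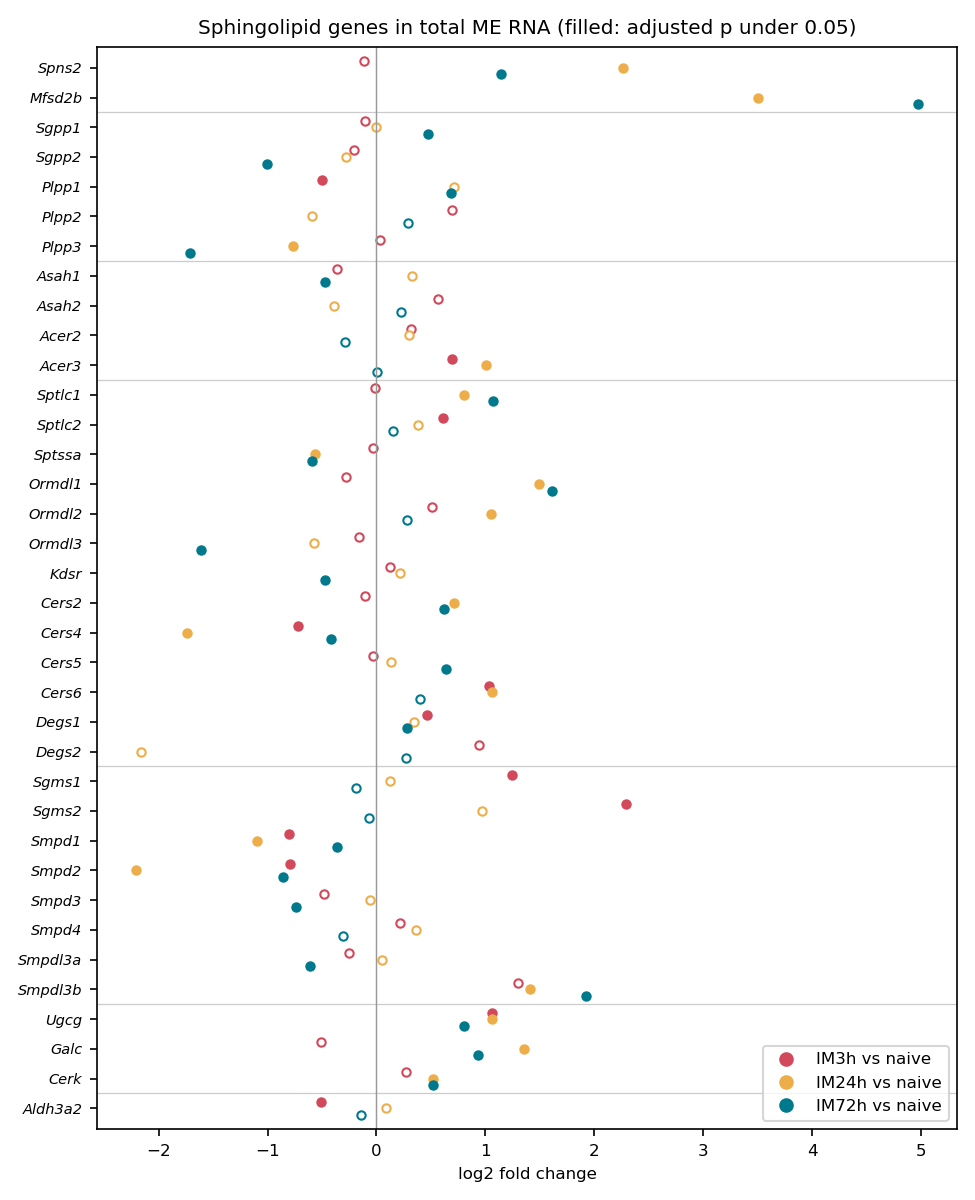
Log2 fold change against naïve of sphingolipid genes of the list, grouped by role, in total *ME* at each time, where filled points have an adjusted p under 0.05. *Sgms2* (2.29) and *Ugcg* (1.06) are higher at IM3h, and *Ugcg*, *Galc* and *Cerk* are higher in *ME* at IM24h and IM72h.

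Later in *ME*, 13 of 37 listed genes rose and 5 fell at IM24h, and 14 rose and 11 fell at IM72h. Of all genes, 15.6% rose and 13.4% fell at IM24h, and 29.3% rose and 28.3% fell at IM72h. Both S1P exporters tested rose. *Spns2*, which exports S1P from endothelium, rose by 2.26 (SE 0.38, adjusted p = 0.00188) and 1.14 (SE 0.26, adjusted p = 0.00289), and *Mfsd2b*, the exporter of red cells and platelets, by 3.504 (SE 1.14, adjusted p = 0.0412) and 4.97 (SE 0.59, adjusted p = 4.15e-05). *Mfsd2b* had 0 to 4 counts in the naïve libraries, and its IM24h call was lost with scaling to reference genes (adjusted p = 0.0961) and without IM24h library 1 or 2 or naïve library 1 or 3 (0.0530 to 0.158). In the glycosphingolipid and ceramide 1-phosphate group, *Ugcg*, *Galc* and *Cerk* rose at both times. *Ormdl1*, an inhibitor of serine palmitoyltransferase, rose (1.49, adjusted p = 0.00893, and 1.62, adjusted p = 8.62e-05) while its paralog *Ormdl3* fell at IM72h (-1.61, adjusted p = 0.00067). *Smpd2* (-2.21, adjusted p = 6.09e-05), *Cers4* (-1.74, adjusted p = 0.000976) and *Smpd1* (-1.09, adjusted p = 0.00495) had the largest falls among the listed genes that passed at IM24h. The IM24h call of *Ormdl1* was lost with scaling to reference genes (1.01, adjusted p = 0.0553), and that of *Smpd1* without scaling (-0.60, adjusted p = 0.190) and with the library total (-0.46, adjusted p = 0.149). At IM72h, the phosphatases *Plpp3* (-1.72, adjusted p = 8.39e-07) and *Sgpp2* (-1.001, adjusted p = 0.00328) fell, *Sgpp1* rose (0.47, adjusted p = 0.0214), and *Smpdl3b* rose (1.92, adjusted p = 0.000351). Without scaling the IM72h calls of *Ormdl3* (-0.64, adjusted p = 0.120) and *Sgpp2* (-0.0864, 0.844) were lost, the latter also with the library total (-0.42, 0.185). The change of mouse line applies to all of these values.

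In *RiboTag*, 0 of 34 listed genes passed at IM24h in either direction by edgeR, where 0.497% of all genes passed, and 3 of the 34 had an unadjusted p under 0.05. At IM72h 0 rose and 8 of 34 fell, where 1.05% of all genes rose and 15.1% fell. Among the latter were *Galc* (adjusted p = 0.00956), which encodes a lysosomal glycosphingolipid hydrolase, and *Smpd2* (0.0216). Both calls were lost with no filter on low counts (adjusted p = 0.148), and that of *Smpd2* without any 1 naïve library (0.0706 to 0.103). The receptors *S1pr4* and *S1pr5* were at or near 0 counts in most libraries, and were not tested in any comparison with naïve other than *S1pr4* at *RiboTag* IM72h, which did not pass (adjusted p = 0.591).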

How the data were processed

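RNA of the small bowel *ME* was measured with 3′ end libraries, read single-end, in *RiboTag* and total *ME* fractions of naïve, IM3h, IM24h and IM72h mice. The submitters' notes name Partek, cutadapt, STAR and mm10, and the strand setting of the counting is not given in the sources used here. The deposited tables hold estimated counts that the authors did not scale. Of their values, 31.0 to 67.0% were not whole, and features with fewer than 10 counts in all were already absent. The 4 tables of the authors' comparisons (p-values, false discovery rates, fold changes and group means) were not used. The counts of a symbol's transcripts were added up and the sums rounded.

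Line names match no sample title, so each line took its group from the group entry of its table, 0 lines were left without a group, 0 columns of other samples were present, and library numbers follow the order of names. The tables hold 3 naïve *RiboTag* libraries, identical in all 3 *RiboTag* tables, where the labels list 4. No pair of libraries was identical.

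Groups were compared with edgeR 4.0.16 in R 4.3.3 (quasi-likelihood test, TMM scaling, filterByExpr, only the 2 groups compared, two-sided), on counts joined by symbol across fractions. SE is the log2 fold change divided by the root of F. DESeq2 1.42.0, no scaling, the library total, 3 reference genes (*Actb*, *Hsp90ab1* and *Rplp1*), no filter, a fit of all 4 groups, removal of *AY036118*, the study's rule (unadjusted p under 0.05 and more than 2-fold) and leaving out each library were tried as alternatives. Ratios had 0.5 counts added, or 1 as an alternative, and were tested with exact permutation tests. The fits were tested on simulated data. Folds with 1 to 3 counts come from counts summed over a group and carry 95% counting intervals. The floor for 0 counts is 3 counts in each library, and its folds compare mean CPM. PCR reads are not independent molecules, so the intervals cover counting error only.

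The named genes are the 6 members, of the list of 45 *S1pr4*, *S1pr5*, *Spns2*, *Sgpp1* and *Sgpp2* and the 3 largest rises and falls among genes that passed in each comparison with naïve, and per member the 3 genes most alike. The values of 1 listed gene are not reported here. The members, lists and rules were chosen with earlier results of these data known.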

Additional observations from a re-analysis of the deposited data

Results flagged for a closer look

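In groups of 4 libraries, 1 library stood far from the other 3 in 6 of 30 cases. Chance gives about 1 in 20 for continuous values, a rate that does not hold for counts near 0, and in the *S1pr1* cases a single library with any count fixes the result. The cases share libraries and so are not independent. The rate over all genes was not counted, so an excess among the members cannot be read from this. In *RiboTag* these were *Sphk1* at IM72h (52.8 CPM in library 3, the others 0 to 4.92 CPM), *Sphk2* at IM24h (102.9 CPM in library 3, the others 15.3 to 19.4 CPM), *Sphk2* at IM72h (57.6 CPM in library 2, the others 0 to 0.951 CPM), and *S1pr1* at IM24h (0.818 CPM in library 2, from 2 counts) and at IM72h (0.44 CPM in library 2, from 1 count), with the others at 0. In *ME*, *S1pr3* at IM72h was at 16.7 CPM in library 4 and at 23.0 to 24.2 CPM in the others.

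For a pair of results every library of one fraction lay on the opposite side of naïve from every library of the other, and the difference between the changes was not tested. *Sgpl1* at IM24h was at 10.7 CPM in *RiboTag* (naïve 21.8) and at 44.4 CPM in *ME* (naïve 18.3). *S1pr2* at IM72h was at 0.394 CPM in *RiboTag* (naïve 10.2) and at 15.3 CPM in *ME* (naïve 8.21). Of all genes, 15.0% were lower without overlap at *RiboTag* IM24h and 20.1% higher at *ME* IM24h. At IM72h these shares were 28.0% and 31.1%. The share of genes with both was not counted, so whether the pair exceeds the background is not known.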

How the results depend on the processing

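No paired analysis was possible because the line names of the tables carry no replicate number. The labels title the *ME* libraries as input, and the study's methods describe input as a part of the lysate taken before the pulldown. Where both fractions have the same labelled line, as at IM24h, their libraries may share mice. The comparisons of *RiboTag* with *ME* treated them as independent. The counts of called members that moved by over 1.5 times were as follows. At *RiboTag* IM3h, 1 became 2 under DESeq2, 0 in the fit of all 4 groups, and 1 to 2 when 1 library was left out. At *RiboTag* IM72h, 1 became 2 under DESeq2, no scaling, reference genes, library total, removal of *AY036118* and the study's rule, 0 with no filter on low counts, and 1 to 3 when 1 library was left out (3 without IM72h library 2, 2 without library 3, and 1 without naïve library 3, where *S1pr1* entered the test and passed and *S1pr3* did not). At *ME* IM24h, 2 became 0 with reference genes, and at *ME* IM72h 3 became 1 under the study's rule. From *RiboTag* IM3h to IM24h, 1 became 0 without scaling and with reference genes, and 0 to 2 when 1 library was left out (2 without IM24h library 1). From IM24h to IM72h, *RiboTag* went from 0 to 1 under DESeq2, and *ME* from 1 to 2 without scaling, 0 with reference genes and 1 to 2 when 1 library was left out (2 without IM24h library 3). In *RiboTag* against *ME* at IM24h, 1 became 2 under DESeq2 and without scaling, and 0 to 2 when 1 library was left out. Smaller moves were 4 to 5 at *ME* IM3h with reference genes or the library total (3 to 5 when 1 library was left out), 2 to 3 at *ME* IM24h with the library total, and 3 at *ME* IM72h to 4 without scaling or with the library total and to 2 with reference genes or the fit of all 4 groups (2 to 3 when 1 library was left out). The causes were not tested.

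Directions turned mostly with the scaling. The median log2 change over all genes moved, at *RiboTag* IM72h from -0.40 to -2.07 to -2.60, at *RiboTag* IM24h from -0.11 to -0.96 to -1.51, at *RiboTag* IM3h from -0.04 to between -0.45 and 0.25, and in *ME* to between -0.58 and 0.98. Without scaling, the log2 fold change against naïve became 0.24 for *Sphk2* (*RiboTag* IM3h), -0.16 for *S1pr2* (*RiboTag* IM24h), -0.96 for *Sphk1* (*RiboTag* IM72h), 0.11 for *Sphk2* and 0.40 for *S1pr3* (*ME* IM24h), and 0.77 for *Sphk1* and 0.60 for *S1pr3* (*ME* IM72h). From *RiboTag* IM3h to IM24h it became -1.65 for *Sphk2* and -1.12 for *S1pr2*, from IM24h to IM72h -1.20 for *Sgpl1* in *RiboTag* and 0.23, 0.21 and 0.20 for *S1pr1*, *S1pr2* and *S1pr3* in *ME*, and in *RiboTag* against *ME* at IM24h -0.39, -1.30, -1.20 and -0.54 for *Sphk1*, *Sphk2*, *S1pr2* and *S1pr3*. With reference genes it became -0.74 for *S1pr2* (*RiboTag* IM24h), -0.16 for *S1pr3* (*ME* IM3h), -0.13 for *Sphk2* and -0.0685 for *S1pr1* (*ME* IM72h), -1.37 for *Sphk2* and -1.04 for *S1pr2* (*RiboTag* IM3h to IM24h), 0.0263 for *Sphk1* (*RiboTag* against *ME*, naïve), and -0.82 for *Sphk2* and -0.67 for *S1pr2* (*RiboTag* against *ME*, IM24h). With the library total it became -0.14 for *S1pr2* (*RiboTag* IM24h), -0.39 for *Sphk1* (*RiboTag* IM72h), -0.0069 for *S1pr3* (*ME* IM3h), 0.0018, 0.25 and 0.53 for *Sphk1*, *Sphk2* and *S1pr3* (*ME* IM24h), and 0.38 and 0.26 for *Sphk1* and *S1pr3* (*ME* IM72h). With no filter, *Sphk2* at *RiboTag* IM3h became 0.0136. Of these values, *Sphk2* at *ME* IM72h was the one called before the change.

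When 1 library was left out, values that changed sign ran from -0.23 to 0.16 (*Sphk2*, *RiboTag* IM3h), -2.10 to 0.26 and -1.16 to 0.21 (*Sphk1* and *Sphk2*, *RiboTag* IM24h), -1.32 to 2.496 (*Sphk1*, *RiboTag* IM72h), -0.21 to 0.0287 (*S1pr3*, *ME* IM24h), -1.09 to 0.31 and -0.39 to 0.56 (*Sphk2* and *S1pr2*, *RiboTag* IM3h to IM24h), -0.58 to 0.90 (*Sgpl1*, *RiboTag* IM24h to IM72h), -0.34 to 0.26 (*Sphk1*, *RiboTag* against *ME*, naïve), and, at IM24h, -1.49 to 0.93, -0.53 to 0.90, -0.24 to 0.69 and -0.97 to 0.77 (*Sphk1*, *Sphk2*, *S1pr2* and *S1pr3*). The difference from naïve of the log2 *Sphk1* to *Sphk2* ratio then ran from 3.67 to 4.55 at *RiboTag* IM3h and from -2.02 to 0.62 at IM24h. The difference from naïve of the log2 *S1pr3* to *S1pr1* ratio ran from -0.46 to 0.76, from -1.08 to 1.78 and from -6.17 to -4.95 at *RiboTag* IM3h, IM24h and IM72h (where the IM72h ratio reflects the counts added), and from -1.28 to -0.83 at *ME* IM72h, and with 1 count added it was -0.22 at *RiboTag* IM24h. Leaving libraries out of the ratios was added after the data were seen, and with 6 libraries an exact permutation p cannot go below 0.0667 (2 against 4) or 0.1 (3 against 3). *Sphk1* at IM3h kept its direction in both fractions under each alternative. *S1pr1* rested on 0 to 52 counts in a *RiboTag* library, which limits its precision.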

Other observations

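As a description of likeness over libraries that share conditions and depth, the genes with the highest Pearson correlation of log2 CPM with *Sphk1* over the 15 *RiboTag* libraries were *Wee1* (0.924), *Sqle* (0.903) and *Msi1* (0.894), and with *S1pr3* they were *Phax* (0.991), *Nptxr* (0.988) and *Selenok* (0.987). Over the 14 *ME* libraries, *Chka* (0.968), *Ikzf4* (0.966) and *Lmna* (0.965) were most like *Sphk1*, and *Rgs16* (0.896), *Cyyr1* (0.894) and *Nfatc1* (0.892) most like *S1pr1*. They were chosen as the highest of 17930 genes in *RiboTag* and 17919 in *ME*, so high values were bound to appear. Between the members, *Sphk1* and *Sphk2* were least alike in *RiboTag* (-0.07). For the other members the leading gene was *Mapk9* (0.974, *Sphk2*), *Mocos* (0.92, *S1pr1*), *Wdr4* (0.965, *S1pr2*) and *Top3b* (0.955, *Sgpl1*) in *RiboTag*, and *Mypopos* (0.939, *Sphk2*), *5031439G07Rik* (0.967, *S1pr2*), *Elfn2* (0.913, *S1pr3*) and *Dbf4* (0.948, *Sgpl1*) in *ME*.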
